A study of Mus musculus with 12 samples.

Results

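The core autophagy genes and the receptors of selective autophagy are described here at the level of RNA. The genes were chosen by name, from the known roles of their proteins, with earlier results of these data known. Each of the 41 was found among the 24421 genes of the count table. All 41 were also among the 15220 genes with enough counts to be tested. The study examined how the transcription factors TFEB and TFE3 take part in the response to DNA damage, with RNA-Seq of mouse embryonic fibroblasts (MEFs) in 4 groups of 3 libraries. Null control and Null etoposide MEFs carry the genotype labelled Null, which the methods of the study call wild type. DKO control and DKO etoposide MEFs are cells in which CRISPR editing inactivated Tfeb and Tfe3. Etoposide, which traps topoisomerase II on DNA and so breaks both strands, was given at 100 µM for 8 hr. Control cells are untreated according to the sample labels and received DMSO according to the methods. All 4 groups were grown in DMEM with 10% fetal bovine serum. The MEFs were immortalized with SV40, and the study states that this can alter how stable p53 is. Each genotype was represented by 1 line, so the loss of the factors and any other difference between the lines cannot be told apart, and the labels do not state whether replicates come from separate cultures, so p-values measure a spread between samples that may be technical. RNA came from either of 2 extraction kits, and the labels do not state which library had which.

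Macroautophagy encloses cytoplasm in a new membrane vesicle, the autophagosome, and delivers it to the lysosome. A kinase complex around ULK1 starts the process, a lipid kinase complex around PIK3C3 marks the membrane with phosphatidylinositol 3-phosphate (PI3P), and ubiquitin-like conjugation then fixes ATG8 proteins to it, where they capture cargo receptors. TFEB and TFE3 are known to bind E-box letters in the promoters of many autophagy and lysosomal genes when nutrients are short, and fibroblasts are among the cells in which this was worked out.

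Each library held between 45577023 and 104120871 counts on genes. The ribosomal transcript Rn45s took 2.198 to 2.89% of them in Null control, 3.81 to 4.38% in Null etoposide, 1.66 to 1.95% in DKO control and 2.98 to 3.58% in DKO etoposide MEFs, and 22.5 to 24.2%, 25.1 to 27.3%, 20.2 to 21.1% and 21.2 to 22.3% of the reads summed in the table, in the same order, fell on no feature. Both shares were higher after etoposide, and their part in the results was not tested. Levels are given as CPM, counts scaled to a library of 10 to the power of 6 counts, after the TMM scaling of edgeR, and as CPM per kilobase of exon (RPKM) where genes are compared with each other. CPM are shares of a library, so a change in the total RNA of the cells would not be seen. RPKM also depend on the exon lengths used, which may differ from those behind the counts. The order of genes with close RPKM therefore carries an uncertainty. A difference is called higher or lower when the quasi-likelihood test of edgeR gives it a p under 0.05 after adjustment over all 15220 genes. Of the 41 genes, the least abundant was Atg10, with at least 75 counts in every library, and the most abundant was Sqstm1, with at least 29458.

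The targeted genes were measured to check the labels. Tfeb (chromosome 17, 47737030 to 47792419, with this and later positions in GRCm38) was measured at 38.9, 39.2 and 42.1 CPM in Null control, 11.4, 10.2 and 10.4 CPM in Null etoposide, 4.603, 6.09 and 4.68 CPM in DKO control and 1.92, 1.61 and 2.204 CPM in DKO etoposide MEFs. Every DKO library lay below every Null library, including those with the other treatment. Its log2 fold change in DKO against Null MEFs was -2.94 (SE 0.092, adjusted p = 1.05e-14) without etoposide, and etoposide also lowered it in Null MEFs, with -1.91 (SE 0.082, adjusted p = 4.82e-13). Tfe3 (chromosome X, 7762560 to 7775202) was measured at 115, 109.9 and 114 CPM in Null control, 68.5, 69.6 and 68.1 CPM in Null etoposide, 94.1, 93.1 and 90.96 CPM in DKO control and 70.7, 71.2 and 63.4 CPM in DKO etoposide MEFs. Its transcript was present in all 12 libraries. Without etoposide it was lower in DKO than in Null MEFs, with -0.287 (SE 0.042, adjusted p = 8.67e-06) and no overlap of replicates, while the genotypes overlapped after etoposide. The labels therefore match the Tfeb transcript, while the Tfe3 transcript separates the genotypes only without etoposide.

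Fibroblast markers were checked against those of other cells. Of 10 fibroblast markers, 8 were at 1 CPM or more in every library, and the most abundant was Vim, with a mean of 1880.0 CPM. Their summed level differed between the groups, with 6843 to 6949 CPM in Null control, 3758 to 3880.0 CPM in Null etoposide, 11020.0 to 11620.0 CPM in DKO control and 4726 to 5067 CPM in DKO etoposide MEFs. Thy1 was at 4.21 CPM in Null control and 0.0365 CPM in DKO control MEFs, so this marker was near absent from the DKO cells. Of 6 epithelial markers, 5 were under 1 CPM in every library, as were 4 of 6 endothelial and 5 of 6 muscle and nerve cell markers. Of 7 blood cell and macrophage markers, 6 were under 1 CPM in every library, with Adgre1 at 0 in the control groups. The most abundant of them was Cd68, and their summed level was 1.57 to 1.85 CPM in Null control, 13.03 to 13.97 CPM in Null etoposide, 1.71 to 2.75 CPM in DKO control and 3.89 to 4.88 CPM in DKO etoposide MEFs. The summed level of the 6 endothelial markers was 0.154 to 0.27 CPM in Null control, 4.61 to 5.27 CPM in Null etoposide, 0.0652 to 0.211 CPM in DKO control and 1.48 to 2.02 CPM in DKO etoposide MEFs. That of the 6 epithelial markers was 0.707 to 0.959, 2.66 to 3.16, 0.554 to 1.16 and 1.88 to 2.21 CPM, and that of the 6 muscle and nerve cell markers 0.762 to 1.38, 1.44 to 2.26, 3.52 to 4.23 and 1.79 to 2.53 CPM, in the same order. The marker sums move with genotype and treatment, and their part in the results below was not tested. In RNA from whole cultures, fewer cells of a type and less RNA per cell cannot be told apart.

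Autophagy genes moved in both directions in each comparison. In Null MEFs etoposide raised 19 of the 41 genes and lowered 18, where 42.3% of all genes tested were higher and 37.2% lower. The share of the 41 past the threshold was 90.2%, beside 79.4% of all genes, and their median log2 fold change was 0.07, the same as over all genes (0.07). In DKO MEFs etoposide raised 22 and lowered 12, beside 43.7% and 31.5% of all genes (75.1% in either direction), with a median of 0.17 against 0.14 for all genes. DKO control MEFs had 23 genes higher and 10 lower than Null control MEFs, beside 33.3% and 33.4% of all genes (66.7% in either direction), with a median of 0.20 against -0.02. With library size alone these medians were 0.075 and -0.14. After etoposide 21 were higher and 9 lower in DKO MEFs, beside 37.5% and 36.6% of all genes (74.0% in either direction), with a median of 0.13 against -0.00, though the median was 0.07 without DKO etoposide replicate 1 and 0.065 with DESeq2. The interaction asks whether the response to etoposide differs between the genotypes, and it was above 0 for 19 genes and below 0 for 14, beside 29.6% and 24.4% of all genes (54.0% in either direction).

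**Figure D1:**
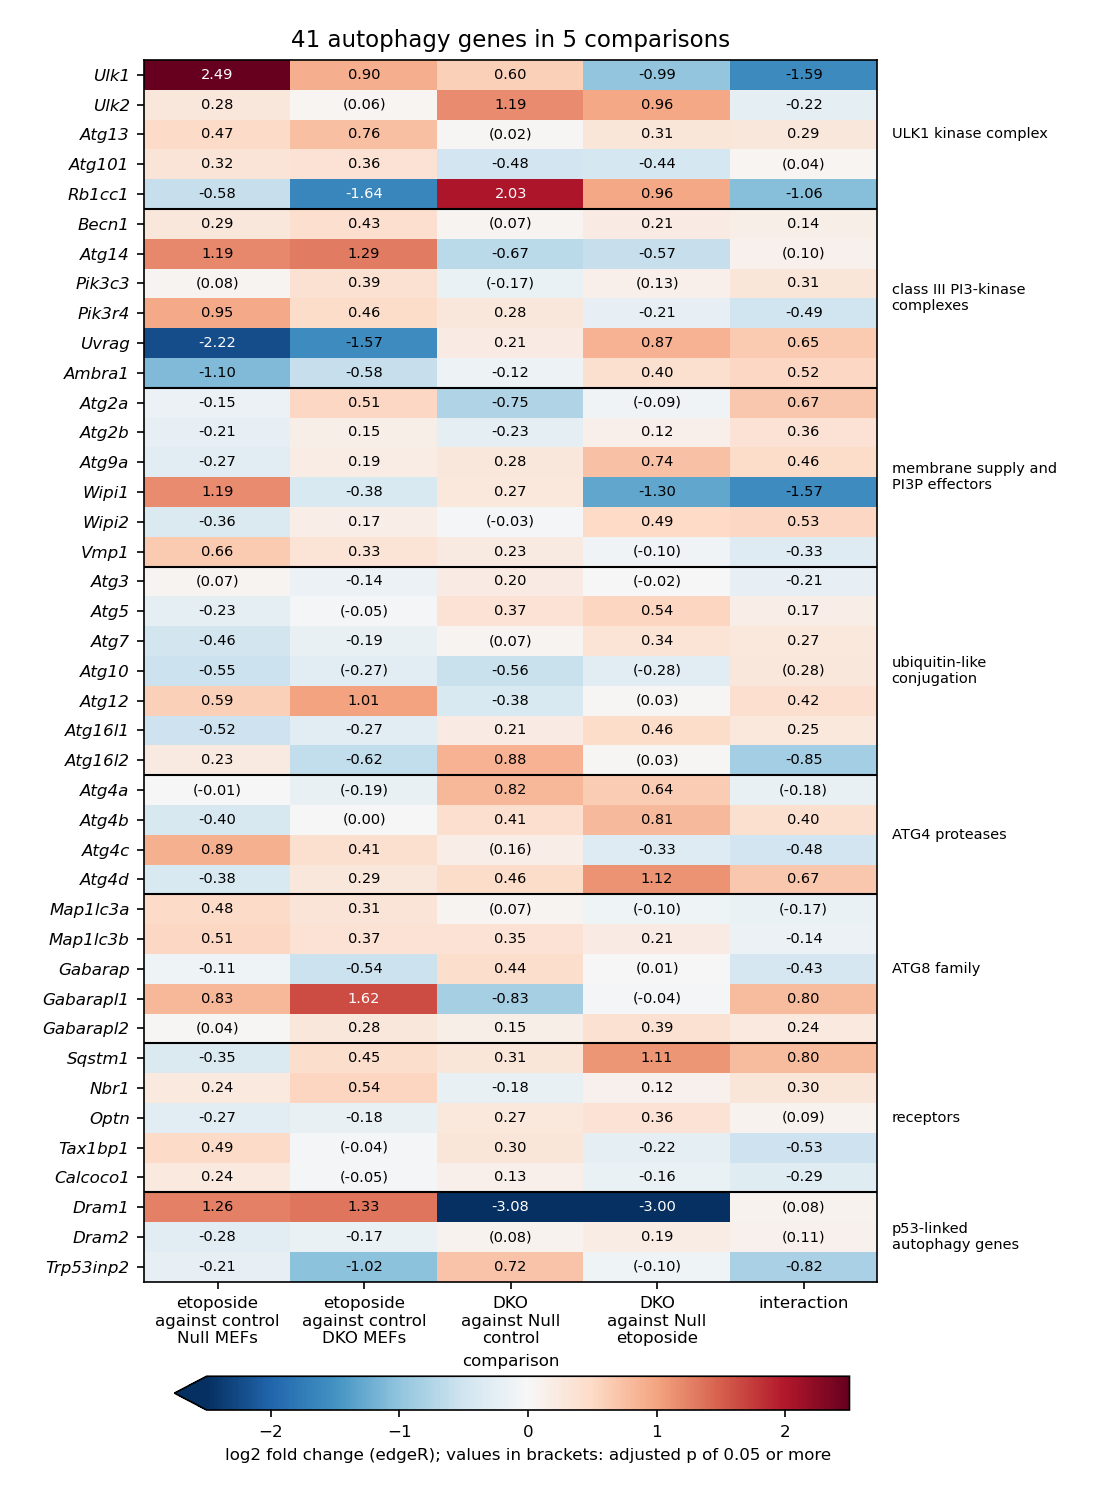
Log2 fold changes of the 41 autophagy genes (lines, grouped by role) in the 5 comparisons (columns), from red for higher to blue for lower, with values in brackets where the adjusted p is 0.05 or more. The highest value is 2.49 for Ulk1 after etoposide in Null MEFs and the lowest is -3.08 for Dram1 in DKO against Null control MEFs.

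Most of the changes were small. At least a 2-fold rise was found for 4 genes in Null MEFs and 4 in DKO MEFs after etoposide, and at least a 2-fold fall for 2 and 3. Of all genes tested, 3415 and 2718 rose at least 2-fold (22.4% and 17.9%, beside 9.76% of the 41 in either genotype), and 1233 and 1207 fell as much (8.1% and 7.93%, beside 4.88% and 7.32%). The scaling of the libraries bears on the direction of small changes. With library size alone in place of TMM factors, the median over all genes, as a log2 fold change, shifted by 0.17 for etoposide in Null MEFs, 0.27 for etoposide in DKO MEFs, -0.12 for DKO against Null MEFs without etoposide, -0.02 for DKO against Null MEFs after etoposide and 0.10 for the interaction. The split of all genes past the threshold moved with it, from 6435 higher and 5656 lower to 7806 and 4396 in Null MEFs, from 6645 and 4790 to 9316 and 3004 in DKO MEFs, from 5066 and 5091 to 3977 and 6393 between the untreated genotypes, from 5701 and 5569 to 5539 and 5705 between the treated genotypes, and from 4507 and 3719 to 5734 and 3055 for the interaction. Of the 41 genes, 22 were then higher and 11 lower with etoposide in Null MEFs (median 0.24), and 29 and 6 in DKO MEFs (median 0.44). Between the untreated genotypes 16 were then higher and 12 lower. The size factors of DESeq2 gave 5072 higher and 6096 lower between the treated genotypes, with 18 and 12 of the 41 genes. For the interaction they moved the split the other way, to 3796 and 4192, with 16 and 15 of the 41.

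The ULK1 complex starts autophagosome formation, with ULK1 and its relative ULK2 as the kinases. Ulk1 (chromosome 5, 110784488 to 110810097) was measured at 22.8, 24.2 and 24.4 CPM in Null control and 139, 130.1 and 133 CPM in Null etoposide MEFs, and at 35.5, 37.5 and 35.1 CPM in DKO control and 69.2, 73.7 and 59.2 CPM in DKO etoposide MEFs. No groups overlapped, with the Null control libraries lowest and the Null etoposide libraries highest. Etoposide gave a log2 fold change of 2.49 (SE 0.065, adjusted p = 5.52e-16) in Null MEFs, the largest rise among the 41 genes, and 0.899 (SE 0.063, adjusted p = 6.78e-10) in DKO MEFs. The interaction was -1.59 (SE 0.09, adjusted p = 1.22e-10). The genotypes thus changed order, with Ulk1 higher in DKO control than in Null control MEFs by 0.599 and lower in DKO etoposide than in Null etoposide MEFs by a log2 fold change of -0.99.

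Ulk2 (chromosome 11, 61775649 to 61855073) differed more between genotypes than between treatments. It was measured at 31.7, 35.9 and 32.2 CPM in Null control, 42.04, 39.6 and 39.4 CPM in Null etoposide, 76.01, 77.4 and 73.8 CPM in DKO control and 75.8, 80 and 80.2 CPM in DKO etoposide MEFs. All 6 DKO libraries were above all 6 Null libraries. DKO against Null control MEFs had a log2 fold change of 1.19 (SE 0.048, adjusted p = 4.15e-13), while etoposide gave 0.28 in Null MEFs and 0.06, not past the threshold, in DKO MEFs, the latter being 0.33 and past it with library size alone. In RPKM the ratio of Ulk1 to Ulk2 was 0.741 to 0.832 in Null control, 3.61 to 3.71 in Null etoposide, 0.512 to 0.531 in DKO control and 0.8097 to 1.01 in DKO etoposide MEFs. Ulk1 was therefore the more abundant kinase transcript per length in every library of Null etoposide MEFs and in no control library.

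Rb1cc1 encodes FIP200, the large scaffold of the complex (chromosome 1, 6206197 to 6276648). It was measured at 151, 157 and 144 CPM in Null control, 102, 101 and 99.2 CPM in Null etoposide, 620.0, 599 and 622 CPM in DKO control and 201, 187 and 203 CPM in DKO etoposide MEFs. The DKO control libraries stood far above all others, and etoposide brought DKO MEFs down to somewhat above the Null control level. Between DKO and Null control MEFs the log2 fold change was 2.03 (SE 0.04, adjusted p = 2.63e-17), the largest rise in that comparison among the 41 genes, and with etoposide it was -1.64 (SE 0.039, adjusted p = 2.63e-16) in DKO MEFs against -0.58 in Null MEFs. The interaction was -1.06 (SE 0.055, adjusted p = 4.51e-11). Exons of Rb1cc1 overlap 4732440D04Rik on the opposite strand, and the strand setting of the counting is not given, so counts of such genes carry an uncertainty. The partners Atg13 and Atg101, which hold the complex together, rose with etoposide in both genotypes, Atg13 by 0.47 in Null and 0.76 in DKO MEFs and Atg101 by 0.32 and 0.36.

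**Figure D2:**
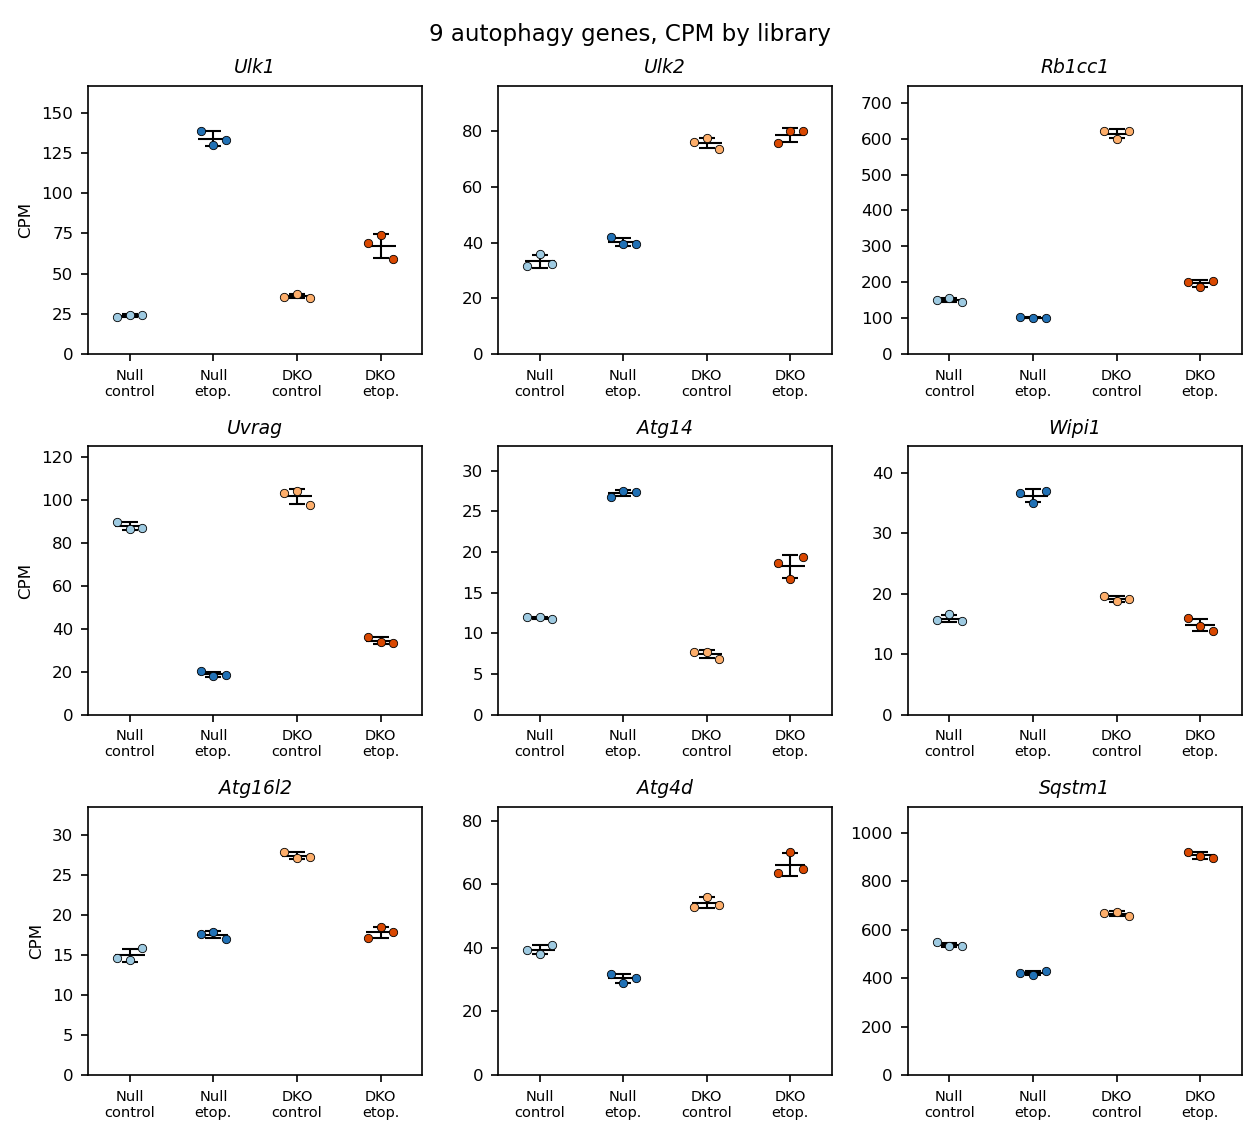
CPM of 9 autophagy genes in each of the 12 libraries (points), with the mean and SD of each group of 3 (bars). Ulk1 and Wipi1 are highest in Null etoposide MEFs, Rb1cc1 and Atg16l2 in DKO control MEFs, and Atg4d and Sqstm1 in DKO etoposide MEFs.

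The class III PI3-kinase forms a complex with ATG14 that makes PI3P at the nascent autophagosome, and another with UVRAG in place of ATG14 that acts on endosomes. Atg14 (chromosome 14, 47540893 to 47570649) was measured at 11.9, 12.002 and 11.7 CPM in Null control, 26.8, 27.5 and 27.4 CPM in Null etoposide, 7.64, 7.74 and 6.88 CPM in DKO control and 18.6, 16.7 and 19.4 CPM in DKO etoposide MEFs. It was higher after etoposide and lower in DKO MEFs, and no groups overlapped. The log2 fold change with etoposide was 1.19 (SE 0.062, adjusted p = 6.71e-12) in Null MEFs and 1.29 (SE 0.068, adjusted p = 1.32e-11) in DKO MEFs, and that of DKO against Null control MEFs was -0.67 (SE 0.072, adjusted p = 1.87e-07). The interaction of 0.099 was not past the threshold (adjusted p = 0.398). Uvrag (chromosome 7, 98885021 to 99141141) was measured at 89.7, 86.3 and 86.97 CPM in Null control, 20.1, 17.8 and 18.5 CPM in Null etoposide, 103, 104 and 97.7 CPM in DKO control and 36.1, 33.9 and 33.1 CPM in DKO etoposide MEFs. Both treated groups were far below both control groups. Etoposide changed it by a log2 fold change of -2.22 (SE 0.049, adjusted p = 6.8e-17) in Null MEFs and -1.57 (SE 0.047, adjusted p = 4.56e-15) in DKO MEFs, with an interaction of 0.65 (SE 0.067, adjusted p = 2.39e-07).

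The transcripts of these alternative subunits exchanged their order in RPKM. The ratio of Uvrag to Atg14 was 5.201 to 5.43 in Null control and 9.72 to 10.3 in DKO control MEFs, against 0.469 to 0.542 in Null etoposide and 1.23 to 1.47 in DKO etoposide MEFs. Uvrag was the more abundant of the pair in every library except the 3 of Null etoposide MEFs. Among the shared subunits, Pik3r4 (the VPS15 kinase-like subunit) rose by 0.95 in Null and 0.46 in DKO MEFs and Becn1 by 0.29 and 0.43, while the lipid kinase Pik3c3 itself had 0.08, not past the threshold, in Null MEFs (0.25 and past it with library size alone) and 0.39 in DKO MEFs. Ambra1, whose product binds Beclin 1, fell, with -1.102 in Null and -0.58 in DKO MEFs. Exons of Atg14 overlap Gm49004, those of Uvrag overlap Gm45187 and those of Becn1 overlap Cntd1, each on the opposite strand.

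Promoter windows are shown for the members that hold the E-box letters TFEB and TFE3 are known to bind, since Atg14 is among the genes that moved most. The windows come from RefSeq (GRCm38.p6) and run from 250 bases before to 50 bases after the start given there, where 35 of the 41 genes had one, and Rb1cc1, Becn1, Pik3c3, Atg12, Atg16l1 and Map1lc3a had none. The letters CACGTG, which read the same on both strands, were in the windows of Atg14, Atg3, Atg5 and Atg7, 4 of 35 genes (11.4%), beside 2187 of the 27025 genes with a window (8.09%). The longer TCACGTG or its reverse complement CACGTGA, which contain CACGTG, were in 3 (Atg14, Atg3 and Atg7), beside 4.29% of all genes, and TCACGTGA, which contains both, was in 1 (Atg3), beside 1.12%. Capitals mark the motif with any flanking letter that extends it. The Atg14 window is chr14:47568385-47568684 on the minus strand, with the motif at -1 to 4 from the start, and that of Atg3, which encodes the enzyme that passes ATG8 to lipid, is chr16:45158579-45158878 on the plus strand, with motifs at -94 to -89 and at -71 to -66. The Atg5 window is chr10:44268089-44268388 on the plus strand (motif at -14 to -9), and that of Atg7, which encodes the activating enzyme, is chr6:114670846-114671145 on the plus strand (motif at -132 to -127). The start used for Atg7 lies 27999 bases, and that for Atg14 2215 bases, inside the gene as GENCODE draws it. A match is a description, not a site or a cause.
Atg14: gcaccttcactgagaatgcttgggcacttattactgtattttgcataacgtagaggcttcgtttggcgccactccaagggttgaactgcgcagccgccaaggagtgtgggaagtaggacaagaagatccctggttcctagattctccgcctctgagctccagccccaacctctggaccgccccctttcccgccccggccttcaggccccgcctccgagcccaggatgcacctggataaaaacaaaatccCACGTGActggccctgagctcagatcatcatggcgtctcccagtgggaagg
Atg3: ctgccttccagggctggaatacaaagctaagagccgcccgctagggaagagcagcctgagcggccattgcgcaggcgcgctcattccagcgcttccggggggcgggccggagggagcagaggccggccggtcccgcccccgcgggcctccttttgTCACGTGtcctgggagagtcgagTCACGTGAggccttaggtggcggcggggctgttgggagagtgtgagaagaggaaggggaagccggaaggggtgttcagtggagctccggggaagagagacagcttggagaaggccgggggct
Atg5: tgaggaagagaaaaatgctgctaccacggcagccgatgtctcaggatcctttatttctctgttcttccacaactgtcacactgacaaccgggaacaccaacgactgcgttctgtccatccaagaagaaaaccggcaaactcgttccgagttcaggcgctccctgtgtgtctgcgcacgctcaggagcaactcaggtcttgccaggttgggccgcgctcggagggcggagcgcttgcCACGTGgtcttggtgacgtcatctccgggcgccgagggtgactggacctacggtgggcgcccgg
Atg7: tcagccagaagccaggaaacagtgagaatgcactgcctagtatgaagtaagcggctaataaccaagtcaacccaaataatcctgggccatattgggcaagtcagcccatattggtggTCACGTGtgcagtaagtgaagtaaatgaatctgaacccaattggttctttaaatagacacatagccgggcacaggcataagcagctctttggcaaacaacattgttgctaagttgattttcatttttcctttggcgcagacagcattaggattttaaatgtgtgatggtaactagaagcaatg

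The genes with these letters did not move as a group. In DKO against Null control MEFs the log2 fold change was -0.67 for Atg14, 0.196 for Atg3, 0.37 for Atg5 and 0.07, not past the threshold, for Atg7. With library size alone Atg3 fell short of the threshold (0.075).

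WIPI proteins read PI3P on the forming membrane, and Wipi1 (chromosome 11, 109573331 to 109611967) had the most opposed response of the 41 genes. It was measured at 15.6, 16.6 and 15.4 CPM in Null control, 36.6, 34.99 and 36.97 CPM in Null etoposide, 19.7, 18.8 and 19.1 CPM in DKO control and 15.9, 14.7 and 13.8 CPM in DKO etoposide MEFs. The Null etoposide libraries were the highest, and those of DKO etoposide MEFs overlapped only with Null control. The log2 fold change with etoposide was 1.19 (SE 0.055, adjusted p = 1.3e-12) in Null MEFs and -0.38 (SE 0.058, adjusted p = 1.48e-05) in DKO MEFs, the latter being -0.11 and not past the threshold with library size alone. The interaction was -1.57 (SE 0.08, adjusted p = 3.68e-11), and after etoposide DKO MEFs were lower than Null MEFs by a log2 fold change of -1.299 (SE 0.056, adjusted p = 7.45e-13). Wipi2, the relative that recruits ATG16L1, moved the other way, with -0.36 in Null and 0.17 in DKO MEFs. In RPKM the ratio of Wipi1 to Wipi2 was 0.288 to 0.309 in Null etoposide MEFs, against 0.0979 to 0.111 in Null control, 0.126 to 0.131 in DKO control and 0.0828 to 0.0931 in DKO etoposide MEFs.

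Membrane supply depends on ATG9A vesicles, on the lipid transfer proteins ATG2A and ATG2B, and on VMP1 in the endoplasmic reticulum. Atg9a had a log2 fold change with etoposide of -0.27 in Null and 0.19 in DKO MEFs, and Atg2b one of -0.21 and 0.15. Atg2a had -0.15 in Null MEFs, which turned to 0.01 with library size alone and was not past the threshold in 5 of the alternatives, and 0.51 in DKO MEFs. Atg2b in DKO MEFs was not past the threshold without DKO control replicate 1 (0.11) or DKO etoposide replicate 1 (0.09). Vmp1 rose in both genotypes, by 0.66 and 0.33. Exons of Atg9a overlap Ankzf1 on the opposite strand and Gm29253 on the same strand, those of Atg2b overlap Gskip on the opposite strand, and Vmp1 holds the microRNA gene Mir21a on its own strand.

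In the conjugation system ATG7 activates ATG12 and the ATG8 proteins, ATG10 and ATG3 transfer them, and ATG12, ATG5 and ATG16L1 form the complex that marks where ATG8 is attached. Atg16l2 (chromosome 7, 101263034 to 101302251), a relative of Atg16l1, was measured at 14.6, 14.4 and 15.8 CPM in Null control, 17.6, 17.9 and 17.03 CPM in Null etoposide, 27.9, 27.1 and 27.2 CPM in DKO control and 17.1, 18.5 and 17.9 CPM in DKO etoposide MEFs. DKO control MEFs were the highest and Null control MEFs the lowest, and the treated groups overlapped. In DKO against Null control MEFs the log2 fold change was 0.88 (SE 0.053, adjusted p = 1.07e-10), that with etoposide was 0.23 in Null and -0.62 in DKO MEFs, and the interaction was -0.85 (SE 0.075, adjusted p = 4.22e-08). Exons of Atg16l2 overlap Fchsd2 on the opposite strand. Atg12 rose with etoposide in both genotypes, from 57.3 ± 2.71 to 86.6 ± 2.12 CPM in Null and from 43.95 ± 0.994 to 88.5 ± 4.56 CPM in DKO MEFs (SD, n = 3 each), and its lower level in DKO control MEFs was no longer seen after etoposide, with an interaction of 0.42 (SE 0.063, adjusted p = 2.37e-05). Its partner Atg5 was instead higher in DKO MEFs with either treatment, by 0.37 and 0.54. Atg7 and Atg16l1 fell with etoposide in both genotypes, Atg7 with -0.46 and -0.19 and Atg16l1 with -0.52 and -0.27, though with library size alone the values in DKO MEFs turned to 0.09 for Atg7 and 0.005 for Atg16l1. Atg10, at 2.52 ± 0.392 CPM in Null control MEFs (SD, n = 3), was too low for firm values, and its log2 fold change of -0.56 in DKO control MEFs was not past the threshold without Null control replicate 3 (-0.46) or DKO control replicate 2 (-0.43).

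The ATG4 proteases trim ATG8 proteins before conjugation and release them from lipid afterwards. Atg4d (chromosome 9, 21265293 to 21277772) was measured at 39.4, 38.05 and 40.9 CPM in Null control, 31.6, 29.04 and 30.3 CPM in Null etoposide, 52.9, 56.1 and 53.4 CPM in DKO control and 63.4, 70.2 and 64.7 CPM in DKO etoposide MEFs. The 4 groups were apart, with the treated groups at the ends of the range. Etoposide lowered it in Null MEFs, with -0.38 (SE 0.05, adjusted p = 1.93e-06), and raised it in DKO MEFs, with 0.29 (SE 0.047, adjusted p = 3.21e-05), and DKO MEFs were higher than Null MEFs after etoposide by 1.12 (SE 0.049, adjusted p = 8.8e-13). Atg4b was also higher in DKO MEFs, by 0.41 without and 0.81 after etoposide. Atg4c rose with etoposide in both genotypes, by 0.89 in Null and 0.41 in DKO MEFs, from 4.65 ± 0.181 and 5.201 ± 0.45 CPM (SD, n = 3 each). Atg4a was the noisiest of the 41 genes, with 2.62, 1.53 and 3.704 CPM in Null etoposide MEFs, and its rise in DKO against Null MEFs after etoposide, 0.64, was not past the threshold without Null etoposide replicate 2 (0.35). Exons of Atg4d overlap Kri1 on the opposite strand, and the annotation names 1 pseudogene after Atg4a.

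The ATG8 family coats the autophagosome and holds receptors. Gabarapl1 (chromosome 6, 129533160 to 129542346) was measured at 52.7, 51.2 and 52.5 CPM in Null control, 90.1, 93.3 and 93.8 CPM in Null etoposide, 29.7, 30.8 and 27.01 CPM in DKO control and 82.7, 92.7 and 94.1 CPM in DKO etoposide MEFs. DKO control MEFs were the lowest, and the treated groups overlapped. In DKO against Null control MEFs its log2 fold change was -0.83 (SE 0.053, adjusted p = 2.21e-10), and that with etoposide was 1.62 (SE 0.053, adjusted p = 1.54e-14) in DKO MEFs, the largest rise there among the 41 genes, against 0.83 (SE 0.051, adjusted p = 6.88e-11) in Null MEFs. After etoposide the genotypes were not called different (-0.04, adjusted p = 0.501), and the interaction was 0.796 (SE 0.073, adjusted p = 6e-08). Gabarap moved the opposite way, at 125, 125 and 122 CPM in Null control, 109.7, 116 and 119 CPM in Null etoposide, 168, 165 and 172 CPM in DKO control and 116, 115 and 118 CPM in DKO etoposide MEFs. DKO control MEFs were the highest, and the other groups lay close together. Its log2 fold change with etoposide was -0.54 (SE 0.035, adjusted p = 2.19e-10) in DKO MEFs and -0.11 in Null MEFs, the latter turning to 0.06 with library size alone. With DESeq2 (-0.06), its size factors (-0.06) or a filter at a mean of 1 CPM (-0.02) Gabarap in Null MEFs was not past the threshold.

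The remaining ATG8 genes were measured as well. Map1lc3b was measured at 109, 115 and 114 CPM in Null control, 159, 158 and 164 CPM in Null etoposide, 146, 141 and 145 CPM in DKO control and 184, 188 and 186 CPM in DKO etoposide MEFs. It was higher with etoposide and higher in DKO MEFs, with no overlap between the groups. Map1lc3a was measured at 66.7, 61.8 and 68.1 CPM in Null control, 86.3, 87.6 and 101 CPM in Null etoposide, 69.9, 69.4 and 67.04 CPM in DKO control and 83.9, 84.98 and 87.3 CPM in DKO etoposide MEFs. It rose with etoposide, by 0.48 in Null and 0.31 in DKO MEFs, and the genotypes overlapped. Gabarapl2 was measured at 29.9, 31.4 and 32.02 CPM in Null control, 31.2, 31.1 and 33.3 CPM in Null etoposide, 34.02, 35.6 and 33.4 CPM in DKO control and 39.7, 41.7 and 43.3 CPM in DKO etoposide MEFs. DKO etoposide MEFs stood above the rest, and the Null groups overlapped. Exons of Gabarapl1 overlap 1700101I11Rik and those of Map1lc3b overlap Zcchc14, on the opposite strand.

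**Figure D3:**
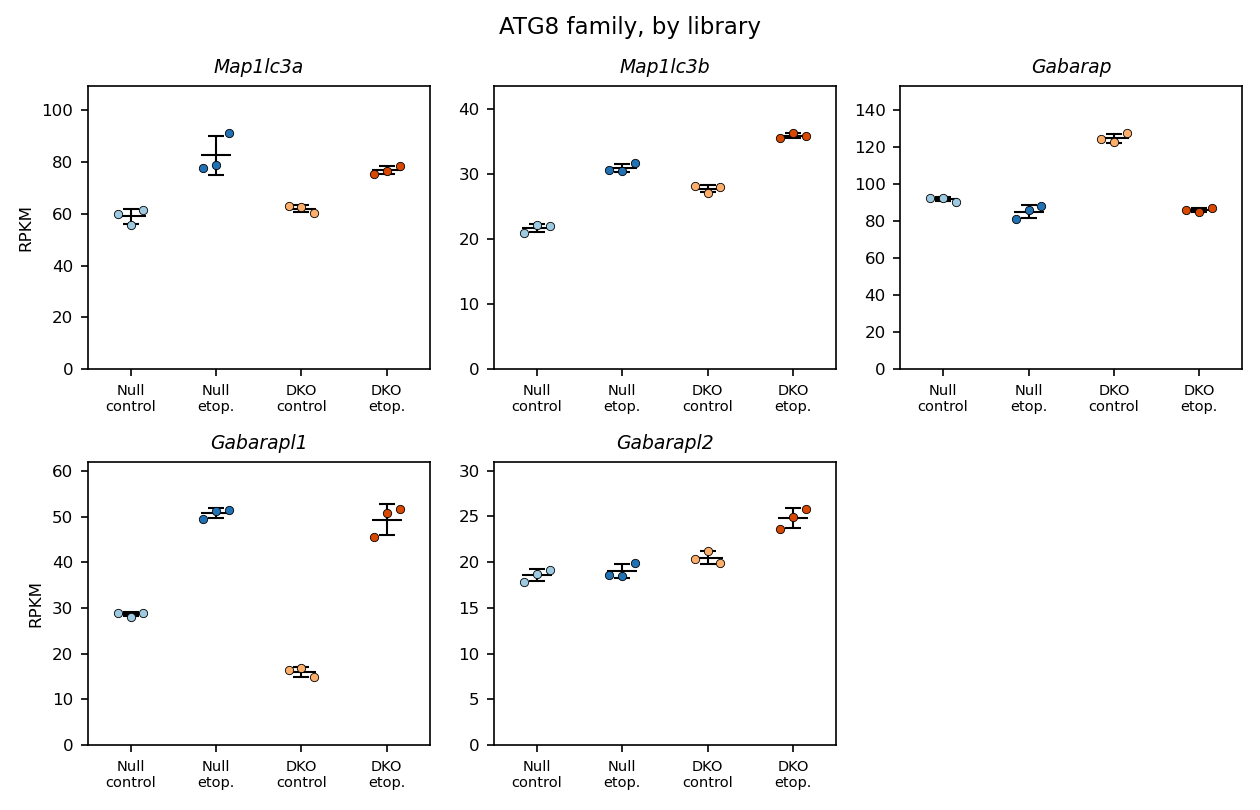
RPKM of the 5 ATG8 genes in each of the 12 libraries (points), with the mean and SD of each group of 3 (bars). Gabarap has the highest mean of the 5 in every group, although Map1lc3a lies above it in Null etoposide replicate 3 (91.03 against 88.2 RPKM), and Gabarapl1 rises from 16 RPKM in DKO control to 49.4 RPKM in DKO etoposide MEFs.

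Per length, the make-up of the family shifted with etoposide. Gabarapl1 held 13 ± 0.095% of the summed RPKM of the 5 genes in Null control MEFs, 18.9 ± 0.589% in Null etoposide, 6.39 ± 0.425% in DKO control and 18.1 ± 0.855% in DKO etoposide MEFs (SD, n = 3 each). Gabarap held 41.8 ± 0.9%, 31.7 ± 0.649%, 49.7 ± 1.01% and 31.5 ± 0.647% in the same order (SD, n = 3 each). These shares do not depend on the scaling of the libraries. For these 2 genes the genotypes differed in the untreated state and their libraries overlapped after etoposide. Gabarapl2 did not follow, with 7.08 ± 0.125% in Null etoposide and 9.08 ± 0.177% in DKO etoposide MEFs (SD, n = 3 each). The sum of the 5 genes was 219.7 ± 2.47 RPKM in Null control, 268.4 ± 12.6 in Null etoposide, 250.9 ± 0.943 in DKO control and 272.8 ± 6.57 RPKM in DKO etoposide MEFs (SD, n = 3 each).

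Receptors link cargo to ATG8 proteins. Sqstm1, which encodes p62 (chromosome 11, 50199366 to 50210827), was measured at 547, 534 and 530.5 CPM in Null control, 419, 411 and 429.6 CPM in Null etoposide, 669.8, 674 and 654 CPM in DKO control and 922, 904 and 894 CPM in DKO etoposide MEFs. The lowest and the highest groups were the treated ones, and no groups overlapped. Etoposide lowered Sqstm1 in Null MEFs, with -0.35 (SE 0.03, adjusted p = 6.33e-09), and raised it in DKO MEFs, with 0.45 (SE 0.03, adjusted p = 3.88e-10). The interaction was 0.799 (SE 0.042, adjusted p = 5.95e-11), and DKO MEFs were higher than Null MEFs after etoposide by 1.11 (SE 0.03, adjusted p = 1.83e-15). Exons of Sqstm1 overlap Mrnip on the opposite strand. Nbr1, a receptor of related domain structure, rose with etoposide in both genotypes, by 0.24 and 0.54, and in RPKM the ratio of Sqstm1 to Nbr1 was 5.89 to 6.04 in Null control, 3.77 to 4.16 in Null etoposide, 8.28 to 8.45 in DKO control and 7.28 to 8.19 in DKO etoposide MEFs. Tax1bp1 rose only in Null MEFs, by 0.49, against -0.04 in DKO MEFs, which turned to 0.24 and was past the threshold with library size alone, and the interaction was -0.53 (SE 0.046, adjusted p = 3.74e-08). Calcoco1 did likewise, with 0.24 in Null MEFs and -0.05 in DKO MEFs, the latter turning to 0.22 with library size alone. Optn, the receptor optineurin, had -0.27 in Null and -0.18 in DKO MEFs, the latter turning to 0.10 with library size alone. Exons of Tax1bp1 overlap Gm43966 and those of Optn overlap 4930551O13Rik, each on the opposite strand.

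The last group holds Dram1, Dram2 and Trp53inp2, listed as linked to p53, though such a link was not examined for Dram2 and Trp53inp2. Dram1, a p53 target that encodes a lysosomal membrane protein, was measured at 16.7, 15.8 and 16.5 CPM in Null control, 38.8, 40.5 and 37.8 CPM in Null etoposide, 1.64, 2.05 and 2.097 CPM in DKO control and 5.504, 4.78 and 4.61 CPM in DKO etoposide MEFs. Treated DKO libraries were all below untreated Null libraries. It had the largest log2 fold change between genotypes among the 41 genes with either treatment (-3.08 without and -2.996 after etoposide), yet its relative response to etoposide was not called different (interaction 0.08, adjusted p = 0.627). Its relative Dram2 had 0.08, not past the threshold, in DKO against Null control MEFs and 0.19 after etoposide, which was 0.13 and not past the threshold with DESeq2, and its interaction was not called either (0.11, adjusted p = 0.302), though it was 0.215 and past the threshold with library size alone. Etoposide gave Dram2 -0.28 in Null MEFs, which was -0.11 and not past the threshold with library size alone. Exons of Dram2 overlap Cept1 on the opposite strand. Trp53inp2, whose product binds ATG8 proteins, was at 28.3 ± 0.493 CPM in Null control, 24.5 ± 0.701 in Null etoposide, 46.6 ± 1.98 in DKO control and 23.1 ± 3.33 CPM in DKO etoposide MEFs (SD, n = 3 each). The DKO control group was the only high group, and the log2 fold change with etoposide was -1.02 (SE 0.075, adjusted p = 1.19e-09) in DKO MEFs against -0.21 in Null MEFs, with an interaction of -0.82 (SE 0.106, adjusted p = 4.19e-06). The fall of Trp53inp2 in Null MEFs was not past the threshold without Null etoposide replicate 2 (-0.19), with DESeq2 (-0.16) or with library size alone (-0.04).

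The responses to etoposide in Null and DKO MEFs share no library and can be set against each other. Of the 41 genes, 14 were higher in both genotypes (34.1%, beside 30.5% of all genes tested) and 9 were lower in both (22%, beside 24.2%). Of these 9, Gabarap in Null MEFs (0.06) and Atg7 (0.09), Atg16l1 (0.005), Optn (0.10) and Dram2 (0.11) in DKO MEFs changed sign with library size alone. Among these values only that of Optn was then past the threshold. Trp53inp2 (-0.04) and Dram2 (-0.11) in Null MEFs were not past it with library size alone. Another 8 (19.5%, beside 8.92% of all genes) went in opposite directions, with Wipi1 and Atg16l2 higher in Null and lower in DKO MEFs, and Atg2a, Atg2b, Atg9a, Wipi2, Atg4d and Sqstm1 lower in Null and higher in DKO MEFs. With library size alone Atg2a was at 0.01 in Null MEFs, and Atg2b in Null MEFs (-0.04) and Wipi1 in DKO MEFs (-0.11) were not past the threshold. Of the 6 genes of membrane supply and PI3P reading, 5 went in opposite directions, all but Vmp1, and 3 of the 5 (Atg2a, Atg2b and Wipi1) lose a call with library size alone. The remaining 10 genes were past the threshold in at most 1 genotype, and only Atg4a was past it in neither. With library size alone Ulk2 (0.33), Tax1bp1 (0.24), Calcoco1 (0.22), Atg4b (0.28) and Atg5 (0.22) were past it in DKO MEFs. Pik3c3 (0.25), Gabarapl2 (0.20) and Atg3 (0.24) were then past it in Null MEFs, while Atg5 (-0.06) and Atg10 (-0.38) were not.

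**Figure D4:**
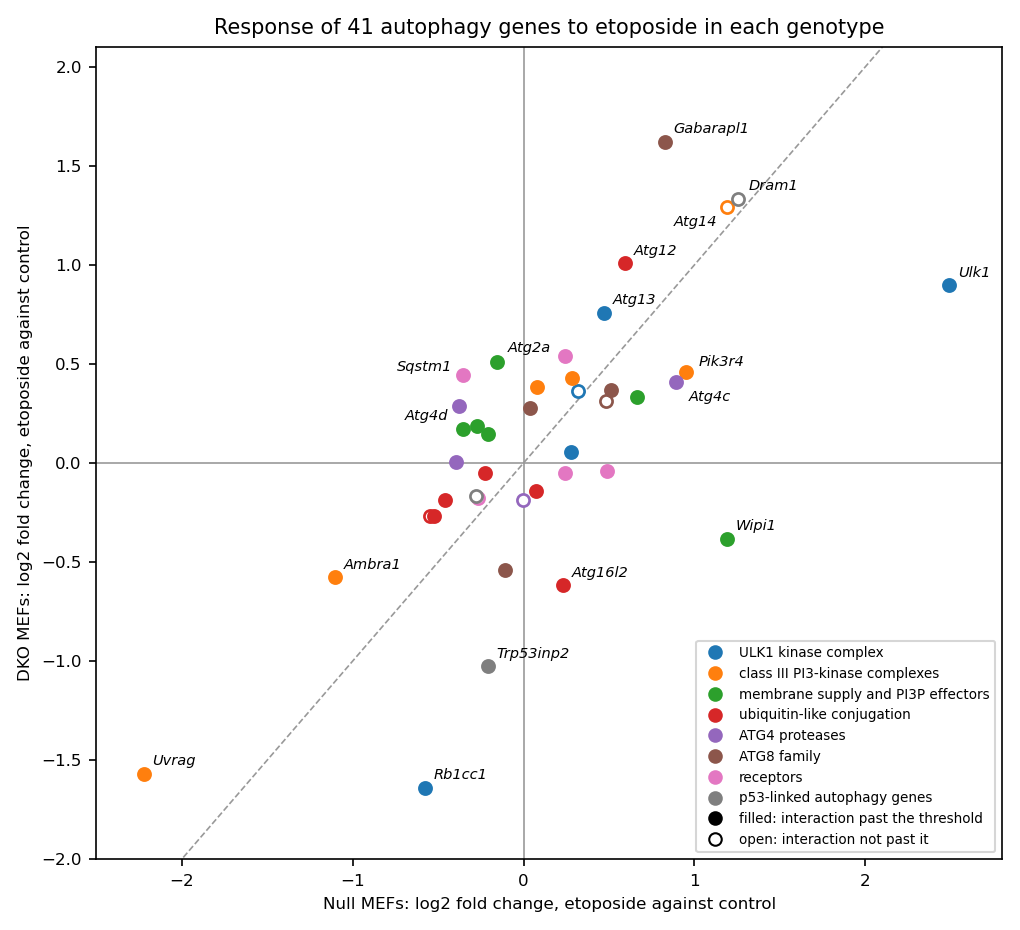
Log2 fold change with etoposide in Null MEFs (horizontal axis) and in DKO MEFs (vertical axis) for the 41 autophagy genes, coloured by role, with filled points where the interaction is past the threshold. Ulk1 and Wipi1 lie far below the dashed line of equal response, and Gabarapl1, Sqstm1 and Atg2a above it, where Atg2a in Null MEFs turns to 0.01 with library size alone.

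The comparisons between genotypes without and after etoposide share no library either. DKO MEFs had 13 of the 41 genes higher with either treatment (31.7%, beside 22.8% of all genes tested), among them Rb1cc1, Ulk2, Uvrag, Sqstm1 and all ATG4 genes but Atg4c. Of these, Uvrag (0.09), Atg16l1 (0.09) and Gabarapl2 (0.025) without etoposide were not past the threshold with library size alone. Gabarapl2 without etoposide was also not past it without Null control replicate 1 (0.114) or DKO control replicate 2 (0.114). Nor was Atg4a after etoposide without Null etoposide replicate 2 (0.35). DKO MEFs had 3 genes lower with either treatment (7.32%, beside 20% of all genes), Atg101, Atg14 and Dram1. The order of the genotypes was reversed for 8 genes (19.5%, beside 11.4%). Of these, Ulk1, Wipi1, Pik3r4, Tax1bp1 and Calcoco1 were higher in DKO control and lower in DKO etoposide MEFs than in Null MEFs of the same treatment. Ambra1, Atg2b and Nbr1 were lower without and higher after etoposide, but Ambra1 without etoposide (-0.12) was not past the threshold when any of 5 of the 6 libraries was left out (-0.13 to -0.12), nor was Atg2b after etoposide (0.12) without DKO etoposide replicate 1 (0.07) or Nbr1 (0.12) without Null etoposide replicate 3 (0.095) or DKO etoposide replicate 3 (0.06). With DESeq2 (0.065 and 0.056), its size factors (0.065 and 0.056) and a filter at a mean of 1 CPM (0.06 and 0.05) Atg2b and Nbr1 after etoposide were not past it either. Pik3r4 after etoposide (-0.21) was not past the threshold without Null etoposide replicate 1 (-0.18) or DKO etoposide replicate 3 (-0.16), and Calcoco1 without etoposide (0.13) not without Null control replicate 1 (0.11) or DKO control replicate 3 (0.105). With library size alone Pik3r4 (0.16) and Calcoco1 (0.01) without etoposide fell short as well. Ulk1, Wipi1 and Tax1bp1 kept both directions past the threshold under every alternative.

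Replicates were close together. For a median gene of the 41, the largest coefficient of variation in any group was 5.43%, and it was up to 10% for 36 genes and 41.6% for Atg4a. The 41 genes together took 2853 ± 14.5 CPM in Null control, 3032 ± 9.69 in Null etoposide, 3644 ± 8.02 in DKO control and 3751 ± 25.9 CPM in DKO etoposide MEFs (SD, n = 3 each). As a share of the counts on genes, with library size alone, they took 0.273 to 0.278% in Null control, 0.327 to 0.33% in Null etoposide, 0.323 to 0.325% in DKO control and 0.398 to 0.408% in DKO etoposide MEFs, so the rise with etoposide was larger and Null etoposide MEFs lay above DKO control MEFs. Much of the difference between genotypes in the sum after TMM came from Sqstm1 and Rb1cc1. Without them the sum of the other 39 was 2165 ± 17.1 CPM in Null control, 2511 ± 17.3 in Null etoposide, 2365 ± 10.6 in DKO control and 2647 ± 19.6 CPM in DKO etoposide MEFs (SD, n = 3 each).

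Genes with long spans on the chromosome were lower after etoposide more often than shorter ones. Of all genes with a span, 55.9% of the 1967 over 100 kb were lower in Null MEFs and 52.8% in DKO MEFs, beside 34.5% and 28.3% of the 12645 shorter ones. The median log2 fold change of the long genes was -0.37 in Null and -0.25 in DKO MEFs, beside 0.10 and 0.16 for the others. With library size alone 50.5% of the long genes were lower in Null MEFs and 41.7% in DKO MEFs, beside 25.7% and 16.4% of the others, and the median of the long genes was -0.20 in Null MEFs and 0.02 in DKO MEFs, so in DKO MEFs the direction of the long genes depends on the scaling. The limit was chosen after the values of the 41 genes were seen, of which Atg10, Uvrag, Atg7, Atg4a and Ambra1 lie above it. Vmp1, which was higher in both genotypes, lies only 28 bases below it, so how many of the 41 genes above the limit were higher depends on where it was set. The part of the span in these results was not tested.

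**Figure D5:**
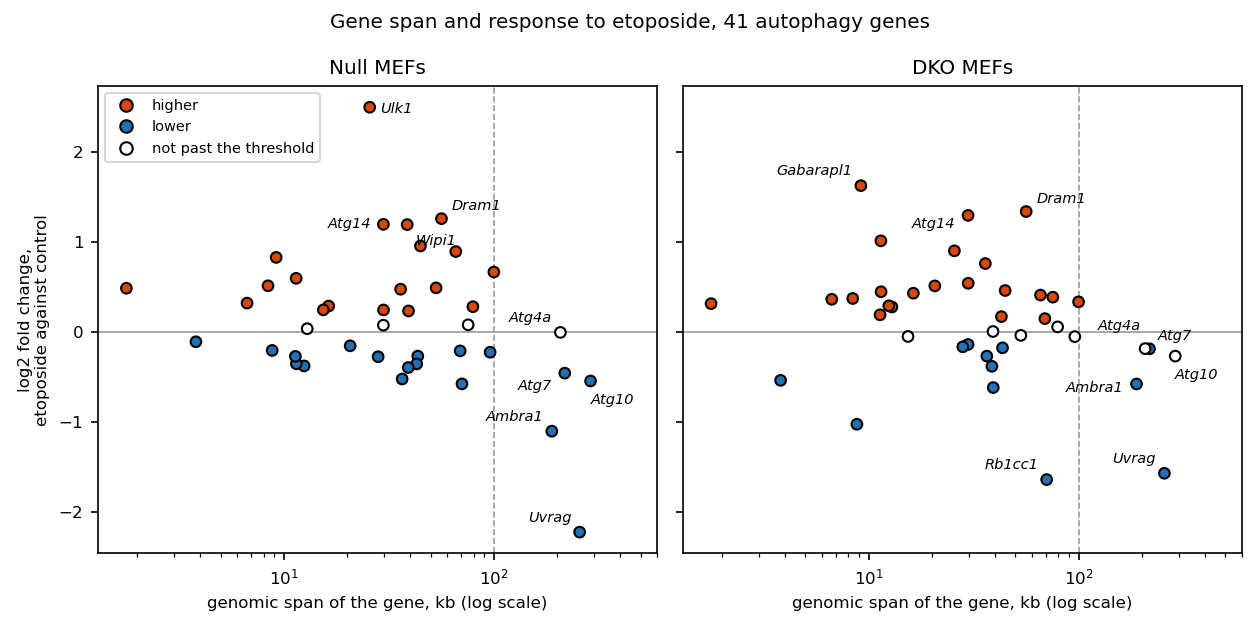
Log2 fold change with etoposide (vertical axis) against the genomic span of the gene in kb (horizontal axis, log scale) for the 41 autophagy genes in Null and DKO MEFs, coloured by call, with a dashed line at 100 kb. The 5 genes right of the line have values from -2.22 to -0.01 in Null MEFs and from -1.57 to -0.19 in DKO MEFs, where Atg7 turns to 0.09 with library size alone. Vmp1 lies just left of the line, at 0.66 and 0.33.

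Other autophagy genes, from a list of 46 of which 43 were tested, were mixed as well. Etoposide raised 13 and lowered 23 in Null MEFs, with a median of -0.14, beside 42.3% and 37.2% of all genes and 0.07. It raised 15 and lowered 18 in DKO MEFs, with a median of -0.03, beside 43.7% and 31.5% of all genes and 0.14, though with library size alone only 15 were lower in Null MEFs and 26 were higher in DKO MEFs. DKO MEFs had 21 higher and 10 lower without etoposide and 22 higher and 11 lower after it, with medians of 0.14 and 0.11, beside 33.3% and 33.4% of all genes without it, 37.5% and 36.6% after it, and medians of -0.02 and -0.00. The interaction was above 0 for 17 and below 0 for 12, with a median of 0.08, beside 29.6% and 24.4% of all genes and 0.05. Atg9b, a relative of Atg9a, went from 0.5202 ± 0.0229 to 73.05 ± 9.06 CPM with etoposide in Null MEFs and from 0.5 ± 0.0925 to 9.91 ± 1.49 CPM in DKO MEFs (SD, n = 3 each), with an interaction of -2.86 (SE 0.374, adjusted p = 4.56e-06). It was thus nearly silent without etoposide in either genotype, and its exons overlap Nos3 on the opposite strand. Stbd1, which encodes a receptor for glycogen, was at 46.3 ± 1.56 CPM in Null control and 5.24 ± 0.535 CPM in DKO control MEFs (SD, n = 3 each). Its fold change between the untreated genotypes was -3.13 (SE 0.067, adjusted p = 7.05e-17) in log2, and etoposide lowered it in Null MEFs, with -1.87 (SE 0.059, adjusted p = 6.13e-15). Snx18, which encodes a membrane remodelling protein, was at 319 ± 9.72 CPM in DKO control and 76.7 ± 1.32 CPM in DKO etoposide MEFs (SD, n = 3 each), which in log2 is -2.06 (SE 0.033, adjusted p = 2e-18). The mitophagy receptor gene Bnip3 was higher in DKO than in Null MEFs after etoposide, by 1.05 (SE 0.058, adjusted p = 2.23e-11), though its exons overlap Gm45507, and Fundc1, also a mitophagy receptor gene, was higher without etoposide, by 0.85 (SE 0.049, adjusted p = 5.23e-11). Wdfy3, whose product ALFY helps to clear protein aggregates, fell with etoposide, with -1.36 in Null and -0.82 in DKO MEFs. Trp53inp1, a relative of Trp53inp2, rose by 5.87 in Null and 4.699 in DKO MEFs.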

How the data were processed

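RNA of 12 MEF libraries was measured by RNA-Seq, and groups and replicate numbers were taken from the labels. The authors deposited raw counts per gene, whole numbers for 24421 genes listed by symbol, with 5 summary lines that were left out. The methods name HISAT2 and HTSeq on GENCODE, and the notes with the deposited table name HISAT2, featureCounts and mm10, a disagreement that the table does not settle beyond its HTSeq-style summary lines. The analysis used edgeR 4.0.16 under R 4.3.3: filterByExpr by group, TMM, and the quasi-likelihood test (glmQLFit, glmQLFTest) in 1 model of 12 libraries without a replicate block, with Benjamini-Hochberg adjustment over 15220 genes and a threshold of 0.05. Standard errors (SE) were derived from the fold change and its F statistic. RPKM used the exons of protein-coding transcripts of GENCODE M21 (GRCm38), which also gave coordinates and overlaps.

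Values in every library are given for Tfeb, Tfe3, the ATG8 family and, per comparison, the 4 members with the largest log2 fold change past the threshold, a mean of at least 1 CPM and no overlap of replicates, others by role; Atg4a was added after its values were seen. From the other lists, the 2 genes with the largest change in each direction and at least 1 CPM could be named. The members and lists were chosen with earlier results of these data known. Alternatives were DESeq2 1.42.0, limma-trend (limma 3.58.1) as in the study, DESeq2's size factors, library size alone, no filter, a mean of at least 1 CPM, thinning to the smallest library, a replicate block, the 6 libraries of a comparison, and each library left out in turn. A legacy version of the edgeR fit, the counts by span and the values of the other lists were added after seeing the data. An exact permutation test of 3 against 3 cannot reach 0.05. Counting error is small at these depths, and the spread within groups was larger, with a chi-square per degree of freedom of 10.7 to 22.0.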

Additional observations from a re-analysis of the deposited data

Results flagged for a closer look

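The test of the interaction found the etoposide response to differ between DKO and Null MEFs for 33 of the 41 autophagy genes (54.0% of all genes tested) and for Tfeb (0.49) and Tfe3 (0.28). Values are interactions in log2, the response to etoposide in DKO MEFs minus that in Null MEFs. In the ULK1 complex they were -1.59 for Ulk1, -0.22 for Ulk2, 0.29 for Atg13 and -1.06 for Rb1cc1. In the PI3-kinase complexes they were 0.14 for Becn1, 0.31 for Pik3c3, -0.49 for Pik3r4, 0.65 for Uvrag and 0.52 for Ambra1. For membrane supply and PI3P reading they were 0.67 for Atg2a, 0.36 for Atg2b, 0.46 for Atg9a, -1.57 for Wipi1, 0.53 for Wipi2 and -0.33 for Vmp1. Among conjugation genes they were -0.21 for Atg3, 0.17 for Atg5, 0.27 for Atg7, 0.42 for Atg12, 0.25 for Atg16l1 and -0.85 for Atg16l2. For the ATG4 proteases they were 0.40 for Atg4b, -0.48 for Atg4c and 0.67 for Atg4d. In the ATG8 family they were -0.14 for Map1lc3b, -0.43 for Gabarap, 0.80 for Gabarapl1 and 0.24 for Gabarapl2. Among receptors they were 0.80 for Sqstm1, 0.30 for Nbr1, -0.53 for Tax1bp1 and -0.29 for Calcoco1, and Trp53inp2 had -0.82.

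Several of these calls depend on the settings. With library size alone the interactions of Ulk2 (-0.12), Atg3 (-0.11) and Map1lc3b (-0.035) were not past the threshold, and with DESeq2 those of Becn1 (0.08), Pik3c3 (0.25) and Atg5 (0.11). Calls were gained for Dram2 (0.215) and Optn (0.197) with library size alone, and for Map1lc3a in 7 alternatives, among them DESeq2 (-0.235) and the replicate block (-0.17). Some calls also depend on single libraries. The interaction of Becn1 (without any of 5 libraries, lowest 0.09) and of Pik3c3 (without any of 5, lowest 0.23) was then not past the threshold, nor was that of Tfeb without DKO control replicate 1 (0.40) or DKO etoposide replicate 3 (0.32), of Atg3 without Null control replicate 2 (-0.17) or Null etoposide replicate 2 (-0.19), of Atg5 without DKO control replicate 2 (0.14) or DKO etoposide replicate 3 (0.14), and of Map1lc3b without Null control replicate 1 (-0.12). Groups of 3 libraries were not tested for outliers.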

How the results depend on the processing

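The number of genes past the threshold, both directions together, and that of genes over 100 kb lower after etoposide, stayed within 1.5 times the value given in all 117 cases, and the number of members higher or lower for 168 of 170. The other 2 were the members lower after etoposide with library size alone, 11 in Null and 6 in DKO MEFs. Of 3655 values for single members, Tfeb and Tfe3, 3511 kept their direction and side of the threshold, 93 were no longer past it, 41 came to be past it, and 10 reversed, all with library size alone. The reversed log2 fold changes were Atg2a 0.013 and Gabarap 0.058 in Null MEFs, and Atg3 0.13, Atg5 0.22, Atg7 0.085, Atg16l1 0.005, Optn 0.10, Tax1bp1 0.24, Calcoco1 0.22 and Dram2 0.11 in DKO MEFs. Reversed here means a changed sign with a call in either setting. Only Atg3 and Optn had calls in both directions. With library size alone Atg2a, Gabarap, Atg7, Atg16l1 and Dram2 were not past the threshold, and Atg5, Tax1bp1 and Calcoco1 were past it only then. Of 1020 values for named genes of the other lists, 1013 kept both, but of 510 counts of genes higher or lower in those lists 41 moved, 13 of 30 with library size alone.

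The median log2 fold change of the members moved by more than the spread between replicates in 14 of 85 cases. For etoposide in Null MEFs it was 0.12 with DESeq2, 0.12 with its size factors, 0.24 with library size alone and 0.16 with the filter at a mean of 1 CPM. In DKO MEFs it was 0.44 with library size alone. For DKO against Null MEFs it was 0.075 without etoposide with library size alone, and after etoposide 0.065 with DESeq2, 0.065 with its size factors, 0.06 with that filter and 0.07 without DKO etoposide replicate 1. With each library left out in turn the latter median was 0.07 to 0.14, and no other library left out moved any median by more than that spread. For the interaction it was 0.043 with DESeq2, 0.046 with its size factors, 0.215 with library size alone and 0.058 with that filter. Where only the scaling changed, all genes moved by the same amount. What moved the other medians was not tested.

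With the replicate number as a block, 19 members were higher and 18 lower for etoposide in Null MEFs. Deviations of libraries with the same number were hardly correlated (-0.12 to 0.13), so no large spread shared by number was seen. This cannot show whether such libraries were handled together, and the labels do not state it. The interaction was not run with 6 libraries, since it needs all 12. Depth limits Atg10, Dram1 and Atg4a most, with as few as 75, 109 and 126 counts in a library, and the design of 1 line per genotype limits every comparison between genotypes.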

Other observations

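Autophagosomes deliver their cargo to lysosomes, and lysosomal genes were compared between the genotypes. Of 40 genes for lysosomal hydrolases and membrane proteins, 27 were higher and 8 lower in DKO than in Null control MEFs, and 23 higher and 12 lower after etoposide, with medians of 0.31 and 0.16. Of all genes tested, 33.3% were higher and 33.4% lower without etoposide, and 37.5% and 36.6% after it, with medians of -0.02 and -0.00. Lamp2, which encodes a major lysosomal membrane protein, was at 211 ± 7.76 CPM in Null control, 202 ± 3.13 in Null etoposide, 495 ± 10.2 in DKO control and 415 ± 4.62 CPM in DKO etoposide MEFs (SD, n = 3 each). It was higher in DKO MEFs, with a log2 fold change of 1.23 (SE 0.033, adjusted p = 1.3e-15) without and 1.04 (SE 0.033, adjusted p = 1.16e-14) after etoposide. Ctsf, which encodes cathepsin F, rose with etoposide from 2.63 ± 0.296 to 49.02 ± 2.64 CPM in Null MEFs and from 1.96 ± 0.248 to 8.35 ± 0.44 CPM in DKO MEFs (SD, n = 3 each), with an interaction of -2.14 (SE 0.149, adjusted p = 1.89e-09). Man2b1, which encodes lysosomal alpha-mannosidase, rose by 1.56 (SE 0.037, adjusted p = 1.48e-16) in Null MEFs, and its interaction was -1.47 (SE 0.051, adjusted p = 3.3e-13). Of the 15 V-ATPase subunit genes tested out of 16, 8 were higher and 2 lower in DKO control MEFs, the latter being 6 with library size alone, and 9 were higher and 4 lower after etoposide (53.3% and 13.3%, then 60.0% and 26.7%, beside the shares of all genes given above). The accessory subunit genes Atp6ap1 and Atp6ap2 had log2 fold changes between the untreated genotypes of 1.102 and 1.34. These genes lie on chromosome X, as do Lamp2, Fundc1 and Atg4a, which were also higher in DKO control MEFs. Tfe3, on the same chromosome, was lower there. The part of the chromosome in these values was not tested.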
